A study of Mus musculus with 17 samples.

Results

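The genes described here encode the proteasome, its assembly factors and its activators, measured in islets isolated from mice at 2 months of age. Members were the probe sets that the platform annotation gives a single gene and whose symbol is Psma, Psmb, Psmc, Psmd or Psme followed by a number, without the immunoproteasome genes Psmb8, Psmb9 and Psmb10. The probe set with the highest mean over the 17 arrays stood for each gene. This gave 42 genes of the 19938 genes tested. Of these, 38 encode subunits, base assembly chaperones or activators in general use, and Psma8 and Psmb11 encode subunits known from germ cells and the thymus. Psmc3ip and Psme3ip1 match the symbol rule and encode partner proteins, not subunits.

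The proteasome is the protease that degrades proteins tagged with ubiquitin. Its barrel-shaped 20S core stacks outer rings of alpha subunits on inner rings of beta subunits, of which only some carry the cutting sites. The 19S cap binds ubiquitin chains, unfolds the substrate with a ring of ATPases and feeds it into the core, and other activators can open the core without the cap. Beta cells make and fold large amounts of proinsulin, and the proteasome removes what is misfolded.

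The arrays cover 5 genotypes. Men1flf Rbp2flf RIP-Cre islets (the double knockout, 4 arrays), Men1flf RIP-Cre islets (3 arrays) and Rbp2flf RIP-Cre islets (4 arrays) carry floxed alleles of Men1, of Rbp2 or of both together with RIP-Cre. RIP-Cre islets (3 arrays) carry the Cre transgene without floxed alleles named in the labels, and wt islets (3 arrays) carry neither. Men1 encodes menin, a partner of histone H3K4 methyltransferases, and Rbp2 is the older name of Kdm5a, a histone H3K4 demethylase. RIP-Cre places the recombinase under the rat insulin promoter, so deletion is directed to beta cells, and the other cells of an islet keep both genes. The mice were untreated. The arrays of a genotype are labelled as numbered repeats, with nothing to tell whether each is another animal, so p-values cover only the spread among these arrays, which may be technical.

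The values are log2 intensities, so each difference given below is on the log2 scale unless it is named as a fold. Arrays report no read depth, and the number of arrays limits the precision. A gene was called when its adjusted p was under 0.05 in limma, a linear model fitted to all arrays with p adjusted over all genes of a comparison. The 3 knockouts were each set against the same RIP-Cre arrays, so the 3 comparisons are not independent of each other.

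As a check of the genotypes, the Men1 probe set read 8.87, 8.54, 8.64 and 8.46 in the double knockout and 8.14, 8.43 and 8.42 in Men1flf RIP-Cre islets, against 9.31, 9.49 and 9.38 in RIP-Cre islets and 9.25, 9.45 and 9.31 in wt islets. Men1 was thus lower in every array with the floxed Men1 alleles. It read 10.24, 10.05, 10.11 and 10.09 in Rbp2flf RIP-Cre islets, above the RIP-Cre arrays by 0.73 (SE 0.11, adjusted p 0.00359). The Kdm5a probe set read 9.39, 9.07, 9.39 and 9.10 in the double knockout and 9.18, 9.02, 9.01 and 8.95 in Rbp2flf RIP-Cre islets, against 9.37, 9.31 and 9.09 in RIP-Cre islets. Kdm5a was not called in either (log2 differences -0.02 and -0.22), and the files do not say whether its probes lie in the deleted exons. The 6 islet endocrine markers Ins2, Iapp, Gcg, Sst, Ppy and Chga averaged between 13.4 and 13.9 on the 17 arrays. The median over all tested genes ran from 7.88 to 7.95 in the double knockout, from 7.86 to 7.87 in Men1flf RIP-Cre islets and from 7.82 to 7.98 in Rbp2flf RIP-Cre islets. It ran from 7.97 to 8.16 in RIP-Cre islets and from 7.99 to 8.10 in wt islets. The knockout arrays as deposited thus had the lower medians, with an overlap between Rbp2flf RIP-Cre and RIP-Cre islets.

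Most proteasome genes that were called were higher in the knockouts. In the double knockout, 22 of 42 members were higher and 3 lower than in RIP-Cre islets, where 13.0% of all genes were called higher and 20.6% lower. In Men1flf RIP-Cre islets, 22 were higher and 7 lower, against backgrounds of 15.7% and 37.8%. In Rbp2flf RIP-Cre islets, 17 were higher and 3 lower, against backgrounds of 6.70% in each direction. Arrays did not overlap with RIP-Cre for 24 members higher and 4 lower in the double knockout (14.2% and 24.9% of all genes), 26 and 9 in Men1flf RIP-Cre islets (18.7% and 44.8%), and 21 and 2 in Rbp2flf RIP-Cre islets (11.6% and 15.4%). The median log2 difference of the members was 0.38, 0.43 and 0.29 in these 3 comparisons in the same order, while the median over all genes was -0.15, -0.23 and -0.13. Leaving out 1 array changed some counts of called members. In Rbp2flf RIP-Cre islets 0 were called by limma without RIP-Cre repeat 3 (21 at an unadjusted p under 0.05), 1 without Rbp2flf RIP-Cre repeat 1, 8 without its repeat 2 and 12 without RIP-Cre repeat 1. Of all genes, these fits called 223, 353, 920 and 2304, against 2672 with all arrays. In the double knockout 9 members were called without RIP-Cre repeat 3 and 16 without its own repeat 2. Of all genes, 2371 and 3958 were called there, against 6716 with all arrays. In bulk RNA, fewer cells of a type and less RNA per cell cannot be told apart.

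The members called higher in each of the 3 knockouts numbered 16, where 4.77% of all genes were, and the 3 share their RIP-Cre arrays. They were 4 alpha genes (Psma1, Psma2, Psma3, Psma6), 4 beta genes (Psmb2, Psmb4, Psmb6, Psmb7), the ATPase gene Psmc6, the cap genes Psmd2, Psmd6, Psmd8, Psmd11, Psmd12 and Psmd13, and the activator gene Psme3. Psma8 and Psme1 were lower in all 3, as were 4.97% of all genes. No member was higher in a knockout and lower in another, and 12 members were called in none. These calls hold for the probe sets used. Another probe set of Psma5, a gene called in none, was called higher in all 3, and another of Psmd2 was not called in the double knockout. With the array median as a covariate, the 18 genes called in all 3 kept their direction in each knockout. The exception was Psmd8 in Men1flf RIP-Cre islets (-0.07). No member was called in that fit. Of all 19938 genes, 280, 396 and 42 were called in the double knockout, Men1flf RIP-Cre and Rbp2flf RIP-Cre islets.

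**Figure D1:**
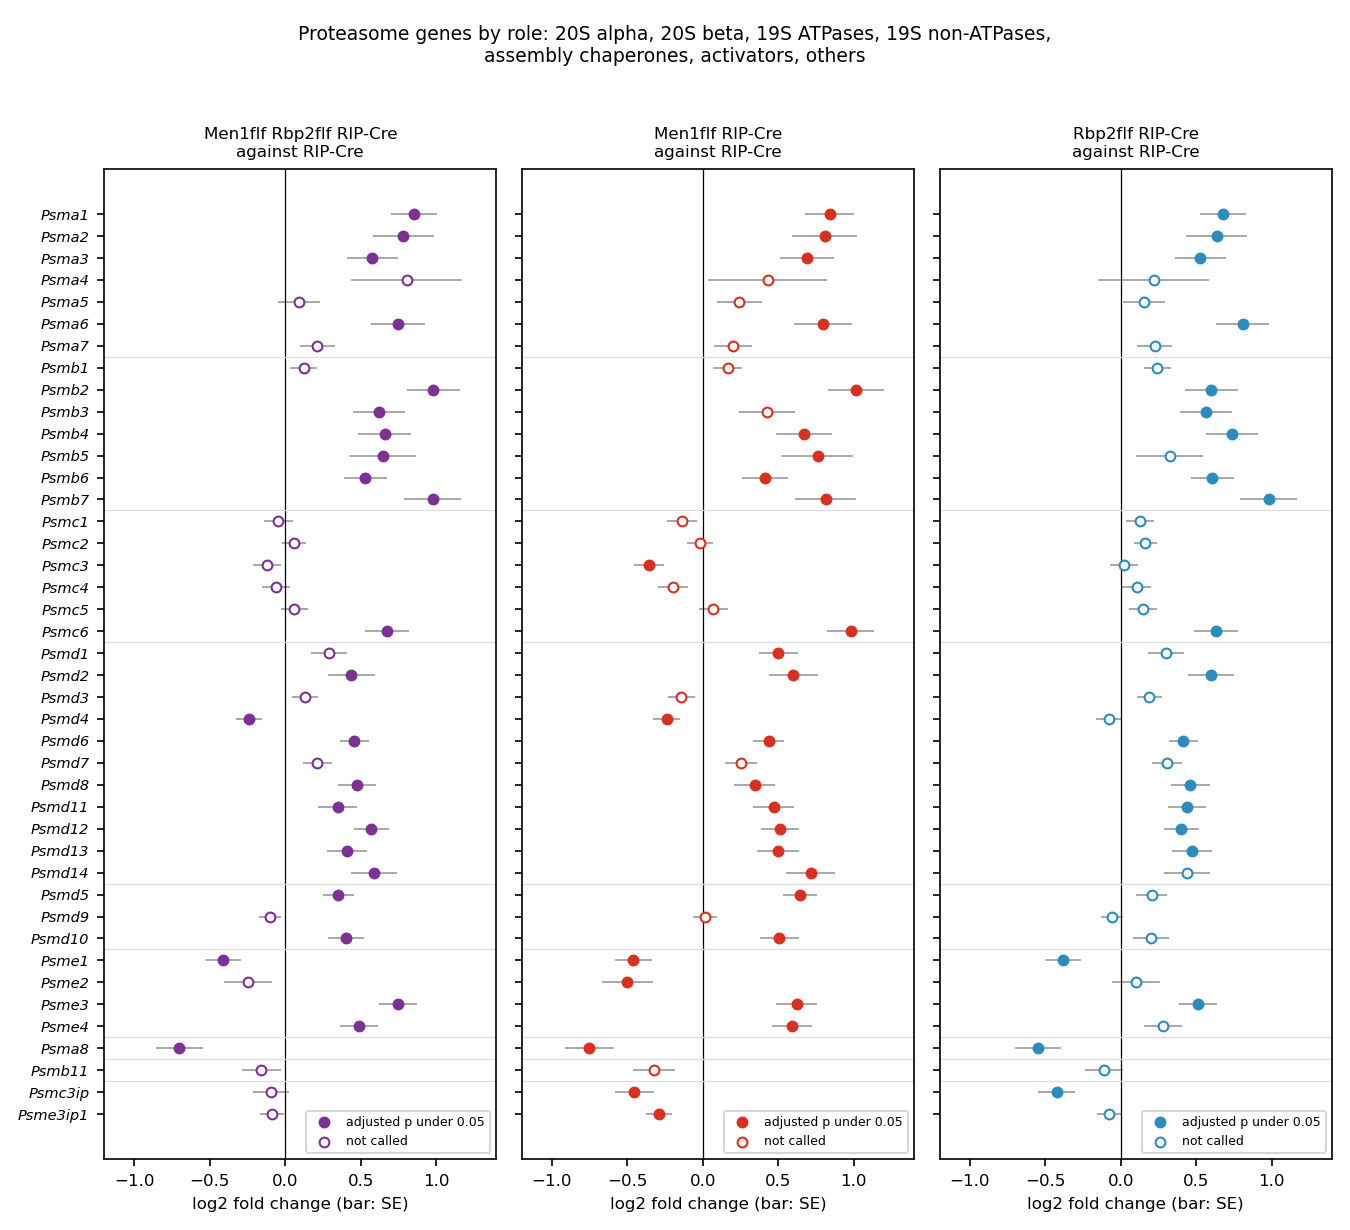
Log2 difference of each of the 42 members against RIP-Cre islets in the double knockout, Men1flf RIP-Cre and Rbp2flf RIP-Cre, grouped by role, with bars of 1 standard error and filled points for adjusted p under 0.05. Most alpha, beta and cap points lie right of 0, Psmc6 stands apart from the other ATPase genes, and Psma8 and Psme1 lie left of 0 in all 3 knockouts.

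The stretches before the transcription starts of 4 members are printed, picked by their calls and by matches to TGACNNNGC. This is the core of the element that Nfe2l1-type factors bind at proteasome genes. Psmb6, Psmc6 and Psmd12 were higher in all 3 knockouts and hold a match, and Psme1 was lower in all 3 and holds none. Of the members with a promoter, no other that was higher in all 3 held a match, while Psmd9, called in none, held 1. A link between motif and direction was not tested. The stretches were taken from RefSeq promoters on GRCm38.p6, with matches to TGACNNNGC and to the ETS core CCGGAAG on either strand in capitals. The Psmb6 gene is annotated from position 70525324, before the start used for its stretch. Its match, at the end of the stretch, thus lies inside the annotated gene. Psmb6 encodes a cutting subunit of the core, Psmc6 an ATPase of the cap, Psmd12 a cap scaffold subunit and Psme1 an interferon-inducible activator.
Psmb6 promoter, GRCm38.p6 chr11:70525107-70525356, plus strand: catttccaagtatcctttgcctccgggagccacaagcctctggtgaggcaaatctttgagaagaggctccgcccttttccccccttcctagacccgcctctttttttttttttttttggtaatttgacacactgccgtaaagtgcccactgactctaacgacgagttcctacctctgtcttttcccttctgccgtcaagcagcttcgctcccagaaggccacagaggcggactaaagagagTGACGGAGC
Psmc6 promoter, GRCm38.p6 chr14:45329574-45329823, plus strand: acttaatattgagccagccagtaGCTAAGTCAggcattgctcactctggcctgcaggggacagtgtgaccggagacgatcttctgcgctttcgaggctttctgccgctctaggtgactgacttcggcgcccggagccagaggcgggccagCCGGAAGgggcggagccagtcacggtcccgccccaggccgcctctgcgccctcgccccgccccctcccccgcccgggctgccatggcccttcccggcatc
Psmd12 promoter, GRCm38.p6 chr11:107479278-107479527, plus strand: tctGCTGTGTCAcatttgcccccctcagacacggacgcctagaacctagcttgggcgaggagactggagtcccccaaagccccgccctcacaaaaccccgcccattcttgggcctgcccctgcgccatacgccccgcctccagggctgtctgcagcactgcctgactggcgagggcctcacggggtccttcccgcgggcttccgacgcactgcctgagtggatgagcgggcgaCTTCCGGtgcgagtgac
Psme1 promoter, GRCm38.p6 chr14:55578244-55578493, plus strand: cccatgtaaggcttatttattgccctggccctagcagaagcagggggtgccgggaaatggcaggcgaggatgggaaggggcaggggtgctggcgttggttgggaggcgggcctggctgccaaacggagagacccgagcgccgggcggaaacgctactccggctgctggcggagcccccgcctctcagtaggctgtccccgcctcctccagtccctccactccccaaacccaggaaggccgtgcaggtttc

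Promoters were found for 35 of the 42 members, 39 in all. The 250 bases before the start held TGACNNNGC in 5 of the 39 (12.8%), against 10.8% of the promoters of the genes tested and 10.2% of all promoters in the table. They held CCAAT, the box of the factor NF-Y, in 15 (38.5%), against 34.6% and 33.8%. The ETS core CCGGAAG, read on both strands like the others, occurred in 13 member promoters (33.3%), against 9.41% and 6.91%. Of the 21 members with a promoter that were higher in at least 1 knockout, 8 held the ETS core, 8 held CCAAT and 4 held TGACNNNGC (Psmb5, Psmb6, Psmc6 and Psmd12). Of the 14 other members the counts were 4, 7 and 1. The motifs were counted separately, matches of different motifs may overlap, and a match describes letters, not binding.

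The alpha rings form the gate of the core. Their 7 genes had mean levels over the 17 arrays of 10.05 (Psma1), 8.47 (Psma2), 9.85 (Psma3), 8.73 (Psma4), 9.06 (Psma5), 9.15 (Psma6) and 9.47 (Psma7). Levels of different probe sets are not comparable and are given only to place each gene on the scale. Psma1, Psma2, Psma3 and Psma6 were called higher in each knockout, and the median over the 7 genes was 0.75 in the double knockout, 0.69 in Men1flf RIP-Cre islets and 0.53 in Rbp2flf RIP-Cre islets.

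Psma1 read 10.05, 10.70, 10.14 and 10.61 in the double knockout, 10.55, 10.19 and 10.34 in Men1flf RIP-Cre islets and 10.40, 10.14, 10.14 and 10.10 in Rbp2flf RIP-Cre islets. The same probe set read 9.63, 9.48 and 9.45 in RIP-Cre islets and 9.51, 9.86 and 9.49 in wt islets. Every knockout array lay above every control array, and repeats 2 and 4 were the higher pair within the double knockout. The log2 differences from RIP-Cre were 0.86 in the double knockout (SE 0.15, adjusted p 0.00233), 0.84 in Men1flf RIP-Cre islets (SE 0.16, adjusted p 0.00136) and 0.68 in Rbp2flf RIP-Cre islets (SE 0.15, adjusted p 0.0185), that is 1.81-fold, 1.79-fold and 1.60-fold.

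Psma6 read 9.10, 9.83, 9.16 and 9.55 in the double knockout, 9.61, 9.28 and 9.48 in Men1flf RIP-Cre islets and 9.63, 9.43, 9.58 and 9.23 in Rbp2flf RIP-Cre islets. Its control values were 8.84, 8.56 and 8.58 in RIP-Cre islets and 8.56, 8.92 and 8.24 in wt islets. Again no knockout array fell to the level of a control array. The differences from RIP-Cre were 0.75 (double knockout), 0.80 (Men1flf RIP-Cre) and 0.81 (Rbp2flf RIP-Cre), with adjusted p of 0.00771, 0.00412 and 0.0171.

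Psma2 was 0.78, 0.81 and 0.64 above RIP-Cre in the double knockout, Men1flf RIP-Cre and Rbp2flf RIP-Cre islets, and Psma3 was 0.58, 0.69 and 0.53 above. The differences of Psma4 were 0.81, 0.43 and 0.22 and were not called. Its double knockout arrays read 8.58, 8.86, 8.60 and 10.85, so the mean there rests on repeat 4. Psma7, with 0.21, 0.20 and 0.22, was not called either. Psma5 depended on its probe set. The probe set used differed by 0.09, 0.24 and 0.15 and was not called, while another probe set of Psma5, with a lower mean of 7.71, was called higher in all 3 by 0.71, 0.76 and 0.58. In the order of probe set numbers, the probe set used sits among genes of chromosome 10. The other sits among genes of chromosome 3, which holds Psma5.

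The beta rings hold the cutting sites. Their 7 genes had mean levels of 9.16 (Psmb1), 9.88 (Psmb2), 10.22 (Psmb3), 10.46 (Psmb4), 9.94 (Psmb5), 10.43 (Psmb6) and 10.57 (Psmb7). Of these, 6 were higher in the double knockout, 5 in Men1flf RIP-Cre islets and 5 in Rbp2flf RIP-Cre islets, and none was lower. Of all genes, 13.0%, 15.7% and 6.70% were called higher, with larger shares among genes of like level, given below. Group medians were 0.65, 0.67 and 0.60. Psmb1 was called in none, with 0.12, 0.16 and 0.24.

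The 3 cutting subunits of the standard proteasome are encoded by Psmb5 (chymotrypsin-like), Psmb6 (caspase-like) and Psmb7 (trypsin-like). Psmb7 read 10.83, 11.17, 10.60 and 11.15 in the double knockout, 10.97, 10.57 and 10.78 in Men1flf RIP-Cre islets and 11.24, 10.79, 10.81 and 10.92 in Rbp2flf RIP-Cre islets. It read 10.27, 9.77 and 9.84 in RIP-Cre islets and 9.80, 10.43 and 9.68 in wt islets. All 11 knockout arrays lay above all 6 control arrays. Psmb7 was 0.98 higher in the double knockout (SE 0.19, adjusted p 0.00318), 0.81 in Men1flf RIP-Cre islets (SE 0.20, adjusted p 0.00512) and 0.98 in Rbp2flf RIP-Cre islets (SE 0.19, adjusted p 0.0120).

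Psmb6 read 10.69, 10.64, 10.54 and 10.64 in the double knockout, 10.40, 10.58 and 10.55 in Men1flf RIP-Cre islets and 10.88, 10.70, 10.71 and 10.53 in Rbp2flf RIP-Cre islets. In the controls it read 10.21, 10.08 and 10 (RIP-Cre) and 9.99, 10.51 and 9.69 (wt). Knockout and RIP-Cre arrays did not overlap, while wt repeat 2 lay among the knockout arrays. The differences from RIP-Cre were 0.53, 0.41 and 0.61 in the double knockout, Men1flf RIP-Cre and Rbp2flf RIP-Cre islets (adjusted p 0.0126, 0.0313 and 0.0203).

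Psmb5 read 9.79, 10.89, 9.69 and 10.43 in the double knockout, 10.57, 9.95 and 10.42 in Men1flf RIP-Cre islets and 10, 9.81, 9.94 and 9.76 in Rbp2flf RIP-Cre islets. It read 9.68, 9.43 and 9.55 in RIP-Cre islets and 9.70, 9.79 and 9.62 in wt islets. The double knockout arrays were widely spread, with repeats 1 and 3 just above RIP-Cre repeat 1. Psmb5 was called higher in the double knockout (0.65, SE 0.22, adjusted p 0.0341) and in Men1flf RIP-Cre islets (0.76, SE 0.23, adjusted p 0.0145). In Rbp2flf RIP-Cre islets the difference of 0.32 was not called (adjusted p 0.273). The direct difference between double knockout and Rbp2flf RIP-Cre islets was 0.32 (adjusted p 0.613).

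Psmb2, another beta subunit without a cutting site, had the largest difference of any member in the double knockout and in Men1flf RIP-Cre islets. It read 9.90, 10.71, 9.93 and 10.56 in the double knockout, 10.41, 10.12 and 10.39 in Men1flf RIP-Cre islets and 10.16, 9.87, 9.74 and 9.80 in Rbp2flf RIP-Cre islets. Against these stood 9.34, 9.22 and 9.32 in RIP-Cre islets and 9.40, 9.73 and 9.43 in wt islets. The lowest knockout array, Rbp2flf RIP-Cre repeat 3, stood barely above the highest wt array. Group means were 10.28 ± 0.42 (SD, n = 4), 10.31 ± 0.16 (n = 3) and 9.89 ± 0.19 (n = 4) in the 3 knockouts, and 9.29 ± 0.06 (n = 3) in RIP-Cre islets. The fold differences from RIP-Cre were 1.97, 2.02 and 1.51 (adjusted p 0.00234, 0.00105 and 0.0385).

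Psmb4, likewise without a cutting site, read 10.29, 11.01, 10.40 and 10.99 in the double knockout, 10.67, 10.61 and 10.77 in Men1flf RIP-Cre islets and 10.85, 10.79, 10.74 and 10.63 in Rbp2flf RIP-Cre islets. RIP-Cre islets read 10.17, 9.92 and 9.95, and wt islets read 9.90, 10.37 and 9.71. All knockout arrays lay above RIP-Cre, and wt repeat 2 lay above repeat 1 of the double knockout. The differences were 0.66, 0.67 and 0.74. Psmb3 was called higher in the double knockout (0.62) and in Rbp2flf RIP-Cre islets (0.57), and its 0.42 in Men1flf RIP-Cre islets had an adjusted p of 0.0620. Another probe set of Psmb3 was not called in Rbp2flf RIP-Cre islets (0.385).

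**Figure D2:**
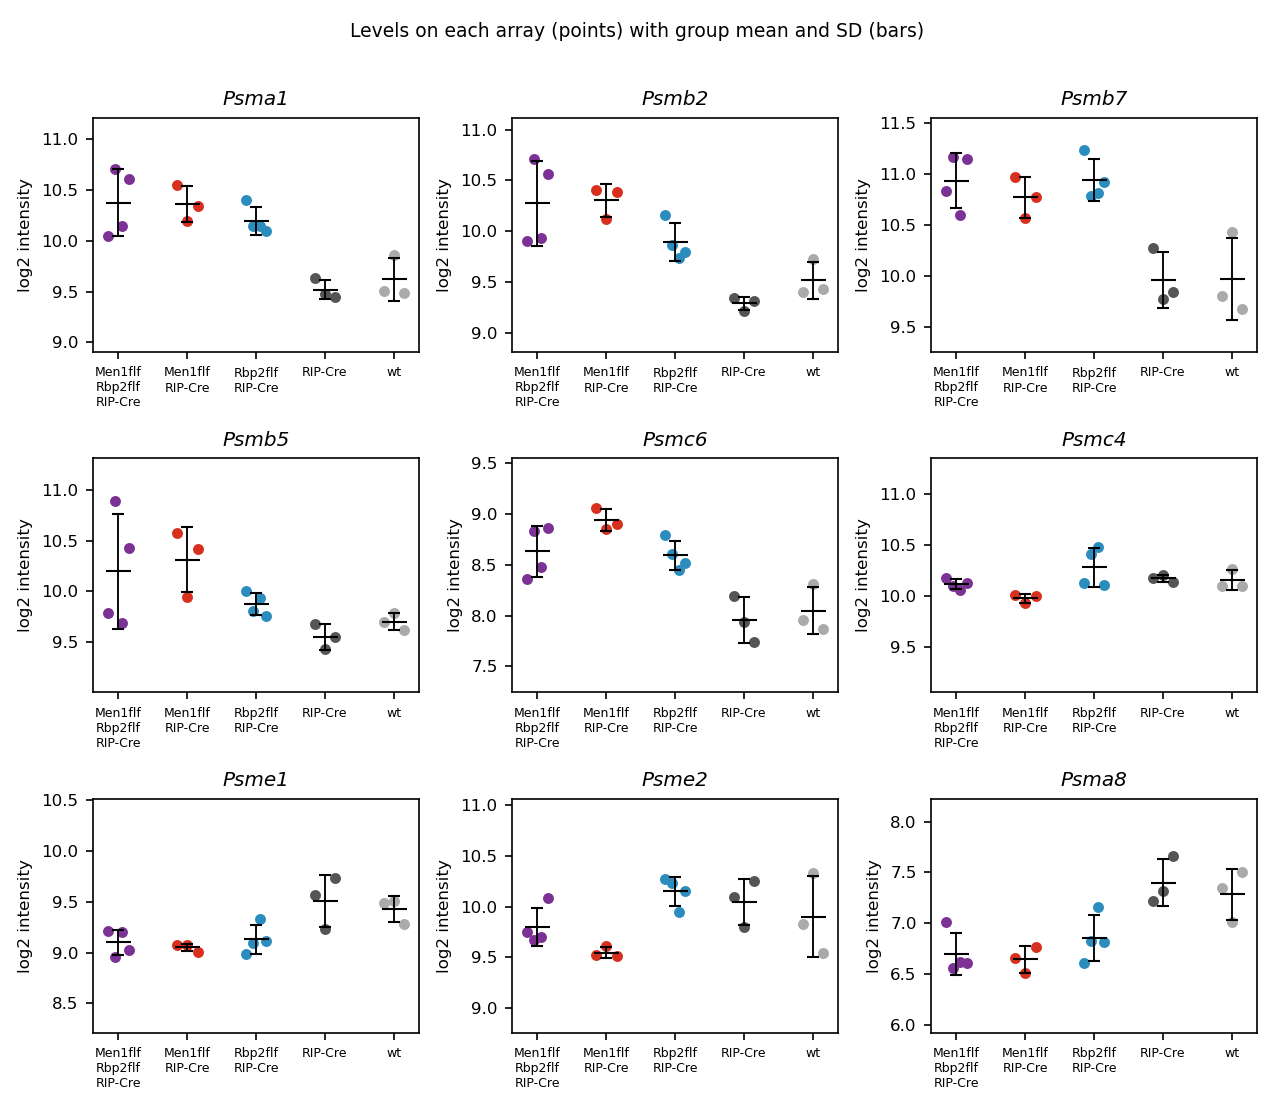
Log2 intensity of 9 members on every array (points, 1 an array) with the group mean and SD (bars), in the 3 knockout groups, RIP-Cre and wt from left to right. Psma1, Psmb2, Psmb7 and Psmc6 lie higher on every knockout array than on any control array. The ATPase gene Psmc4 lies below RIP-Cre on the Men1flf RIP-Cre arrays and overlaps with RIP-Cre in the other knockouts. Psme1 and Psma8 lie lower than in RIP-Cre islets on all or nearly all knockout arrays.

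The ATPase ring of the cap unfolds the substrate. Its 6 genes had mean levels of 9.58 (Psmc1), 9.58 (Psmc2), 9.60 (Psmc3), 10.15 (Psmc4), 9.18 (Psmc5) and 8.45 (Psmc6). On the probe sets used, only Psmc6 was called higher, in all 3 knockouts, and Psmc3 was called lower in Men1flf RIP-Cre islets. Of all genes, 13.0%, 15.7% and 6.70% were called higher in the double knockout, Men1flf RIP-Cre and Rbp2flf RIP-Cre islets. Larger shares were called higher among genes of like level, given below. In Men1flf RIP-Cre islets 37.8% of all genes were called lower. Group medians were 0.01 in the double knockout, -0.08 in Men1flf RIP-Cre islets and 0.14 in Rbp2flf RIP-Cre islets. The other 4 genes ranged from -0.20 (Psmc4, Men1flf RIP-Cre) to 0.16 (Psmc2, Rbp2flf RIP-Cre). A second probe set of Psmc1, with a mean of 8.92, was called higher in Rbp2flf RIP-Cre islets (0.42, adjusted p 0.0366 in limma fitted to all probe sets). It gave 0.27 and 0.30, not called, in the double knockout and Men1flf RIP-Cre islets. By its number this second probe set sits among genes of chromosome 16, while Psmc1 lies on chromosome 12.

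Psmc6 read 8.36, 8.83, 8.48 and 8.86 in the double knockout, 9.06, 8.85 and 8.90 in Men1flf RIP-Cre islets and 8.79, 8.60, 8.45 and 8.52 in Rbp2flf RIP-Cre islets. The RIP-Cre arrays gave 8.19, 7.94 and 7.74 and the wt arrays 7.96, 8.31 and 7.87. Knockout and control arrays did not overlap, and the Men1flf RIP-Cre arrays were among the highest. The differences from RIP-Cre were 0.68 in the double knockout (SE 0.15, adjusted p 0.00490), 0.98 in Men1flf RIP-Cre islets (SE 0.16, adjusted p 0.000419) and 0.63 in Rbp2flf RIP-Cre islets (SE 0.15, adjusted p 0.0194). For Psmc3 the difference was -0.36 in Men1flf RIP-Cre islets (SE 0.10, adjusted p 0.00989), with -0.12 in the double knockout and 0.02 in Rbp2flf RIP-Cre islets.

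The non-ATPase cap genes encode ubiquitin receptors, scaffold subunits and a deubiquitinase. Mean levels were 10.38 (Psmd1), 10.39 (Psmd2), 9.80 (Psmd3), 9.77 (Psmd4), 9.34 (Psmd6), 9.997 (Psmd7), 9.61 (Psmd8), 9.44 (Psmd11), 8.97 (Psmd12), 9.23 (Psmd13) and 9.17 (Psmd14). Of the 11 genes, 7 were higher and 1 lower in the double knockout, 8 and 1 in Men1flf RIP-Cre islets, and 6 and 0 in Rbp2flf RIP-Cre islets, with medians of 0.41, 0.47 and 0.42. The all-gene shares were 13.0% higher and 20.6% lower, 15.7% and 37.8%, and 6.70% in each direction. Among genes of like level the shares called higher were larger, as given below. Psmd14, the deubiquitinase that frees ubiquitin from substrates, was 0.59 and 0.71 higher in the double knockout and Men1flf RIP-Cre islets, and its 0.44 in Rbp2flf RIP-Cre islets had an adjusted p of 0.0614. The scaffold genes Psmd2 (0.44, 0.60 and 0.60 on the probe set used) and Psmd12 (0.57, 0.51 and 0.40) were higher in all 3. So were Psmd6 (0.46, 0.44 and 0.42), Psmd11 (0.35, 0.47 and 0.44) and Psmd13 (0.41, 0.50 and 0.47), all in the same order of knockouts. Psmd8 was 0.48, 0.34 and 0.46 higher, with the sign of its Men1flf RIP-Cre value turned to -0.07 by the array median as a covariate. Psmd1 was called in Men1flf RIP-Cre islets alone (0.50), with 0.29 and 0.30 in the double knockout and Rbp2flf RIP-Cre islets. Psmd3 and Psmd7 were called in none.

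Psmd4, a ubiquitin receptor of the cap, went the other way. It read 9.77, 9.56, 9.75 and 9.60 in the double knockout, 9.67, 9.68 and 9.66 in Men1flf RIP-Cre islets and 9.79, 9.82, 9.94 and 9.77 in Rbp2flf RIP-Cre islets. RIP-Cre islets read 9.99, 9.91 and 9.83, and wt islets 9.77, 9.92 and 9.70. The double knockout and Men1flf RIP-Cre arrays lay below the RIP-Cre arrays, and Rbp2flf RIP-Cre arrays overlapped with them. Psmd4 was 0.24 lower in both (log2 difference -0.24, adjusted p 0.0372 and 0.0331). The median of all genes there was -0.15 and -0.23, and that of other genes of like mean level was 0.07 and 0.06.

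The base assembly chaperones, which hold ATPase subunits until the ring closes and then leave, are encoded by Psmd5, Psmd9 and Psmd10 (mean levels 8.34, 8.26 and 7.78). Psmd5 was 0.35 higher in the double knockout and 0.64 higher in Men1flf RIP-Cre islets, and Psmd10 was 0.40 and 0.51 higher. In Rbp2flf RIP-Cre islets neither was called (0.21 and 0.20). Psmd9 was called in none.

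Of the 4 activator genes, Psme3 was higher and Psme1 lower in all 3 knockouts, and Psme2 and Psme4 were called in some. Psme3 encodes the nuclear activator and Psme4 a large single-chain activator, and Psme1 and Psme2 encode the subunits of the interferon-inducible activator used in antigen processing. Mean levels were 9.23 (Psme1), 9.90 (Psme2), 9.70 (Psme3) and 10.16 (Psme4). Psme3 was higher in the double knockout, Men1flf RIP-Cre and Rbp2flf RIP-Cre islets by 0.74, 0.62 and 0.52 (adjusted p 0.00181, 0.00247 and 0.0232). Psme4 was 0.49 and 0.59 higher in the double knockout and Men1flf RIP-Cre islets, and 0.28, not called, in Rbp2flf RIP-Cre islets.

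Psme1 read 9.21, 8.96, 9.20 and 9.03 in the double knockout, 9.07, 9.07 and 9.01 in Men1flf RIP-Cre islets and 8.99, 9.09, 9.33 and 9.11 in Rbp2flf RIP-Cre islets. In RIP-Cre islets it read 9.57, 9.23 and 9.73, and in wt islets 9.49, 9.51 and 9.28. Only Rbp2flf RIP-Cre repeat 3 reached the control range. The log2 differences of Psme1 were -0.41 (adjusted p 0.0164), -0.46 (adjusted p 0.00759) and -0.38 (adjusted p 0.0431), or 0.75, 0.73 and 0.77 times the RIP-Cre level, in the double knockout, Men1flf RIP-Cre and Rbp2flf RIP-Cre islets.

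Psme2, the neighbour of Psme1 on chromosome 14, read 9.75, 9.67, 9.70 and 10.08 in the double knockout, 9.52, 9.61 and 9.51 in Men1flf RIP-Cre islets and 10.27, 10.23, 9.95 and 10.15 in Rbp2flf RIP-Cre islets. The RIP-Cre arrays read 10.09, 9.80 and 10.25, and the wt arrays 9.83, 10.33 and 9.54. The Men1flf RIP-Cre arrays lay below the RIP-Cre arrays and overlapped with wt. Psme2 was lower in Men1flf RIP-Cre islets (-0.50, SE 0.17, adjusted p 0.0221), and not called in the double knockout (-0.25) or in Rbp2flf RIP-Cre islets (0.10). Another probe set names both Psme2 and Psme2b and was not used.

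The immunoproteasome genes, whose products replace the cutting subunits under interferon, were not members. Psmb10 read 8.27, 8.09, 8.42 and 8.34 in the double knockout and 8.13, 8.21 and 8.0 in Men1flf RIP-Cre islets, against 8.54, 8.54 and 9.03 in RIP-Cre islets. No array of either knockout reached the RIP-Cre range. Psmb10 was lower in both (-0.42 and -0.59), Psmb9 in Men1flf RIP-Cre islets (-0.37), and Psmb8 was called in none (-0.05, -0.07 and 0.13 in the double knockout, Men1flf RIP-Cre and Rbp2flf RIP-Cre islets).

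Immune cells express these activator and immunoproteasome genes at high level, so their markers were set beside them. The 5 macrophage markers averaged 8.16 to 8.44 in the double knockout, 8.07 to 8.35 in Men1flf RIP-Cre islets and 8.02 to 8.09 in Rbp2flf RIP-Cre islets, against 7.93 to 8.05 in RIP-Cre islets and 7.97 to 8.33 in wt islets. The 5 lymphocyte markers averaged 6.96 to 8.59, 7.07 to 7.20 and 6.76 to 6.90 in these knockouts, against 6.95 to 7.24 in RIP-Cre islets and 6.85 to 8.69 in wt islets. The upper ends, 8.59 and 8.69, were single arrays, double knockout repeat 1 and wt repeat 1, on which Psme1 read 9.21 and 9.49. The part of these cells in the result was not tested.

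Psma8, the alpha subunit gene of germ cell proteasomes, had a low mean level of 6.95. It read 7.01, 6.56, 6.62 and 6.61 in the double knockout, 6.66, 6.51 and 6.77 in Men1flf RIP-Cre islets and 6.61, 6.83, 7.16 and 6.82 in Rbp2flf RIP-Cre islets. RIP-Cre islets read 7.22, 7.32 and 7.66, and wt islets 7.35, 7.01 and 7.50. All knockout arrays lay below the RIP-Cre arrays, and 2 of them reached the lowest wt array. The log2 differences were -0.70 (SE 0.15, adjusted p 0.00525), -0.75 (SE 0.16, adjusted p 0.00246) and -0.55 (SE 0.15, adjusted p 0.0337) in the double knockout, Men1flf RIP-Cre and Rbp2flf RIP-Cre islets. Other genes of this level had medians of -0.24, -0.38 and -0.23 in the same comparisons.

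The thymic gene Psmb11, the neighbour of Psmb5 on chromosome 14, had a mean level of 7.20 and was called in none. Psmc3ip, whose product acts in meiotic recombination, had a mean of 7.46. It read 7.91, 7.55, 7.34 and 7.59 in the double knockout, 7.27, 7.18 and 7.26 in Men1flf RIP-Cre islets and 7.05, 7.31, 7.35 and 7.35 in Rbp2flf RIP-Cre islets. The control readings were 7.63, 7.60 and 7.84 in RIP-Cre islets and 7.55, 7.42 and 7.68 in wt islets. The single knockouts lay below all controls, while the double knockout overlapped with them. Psmc3ip was lower in Men1flf RIP-Cre islets (-0.45, SE 0.13, adjusted p 0.00971) and in Rbp2flf RIP-Cre islets (-0.42, SE 0.12, adjusted p 0.0347), with -0.09 in the double knockout. Psme3ip1, a partner of the Psme3 product with a mean level of 9.28, was lower in Men1flf RIP-Cre islets (-0.29) and was called in no other comparison.

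Loss of the second gene on top of the first was tested directly. Between double knockout and Men1flf RIP-Cre islets, limma called 0 of 42 members, and 5 had an unadjusted p under 0.05, 4 higher and 1 lower. Of all genes, 1.67% were called and 14.4% had an unadjusted p under 0.05, against 11.9% of the members. The member median was 0.01, and the differences ran from -0.30 (Psmc6) to 0.38 (Psma4). Between double knockout and Rbp2flf RIP-Cre islets, limma called 0 members, and 3 (7.14%) had an unadjusted p under 0.05. Of all genes, 1.20% were called and 11.6% had an unadjusted p under 0.05. The member median was -0.02, with differences from -0.35 (Psme2) to 0.59 (Psma4), the last resting on the high array of Psma4. With the array median as a covariate, Psmd3 was called in the first comparison and Psmc3ip in the second, both higher in the double knockout. Of all 19938 genes, 454 and 510 were called in these fits, a share like that of 1 in 42 members.

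The interaction asks whether the double knockout differs from the sum of the single effects, as the double knockout minus Men1flf RIP-Cre, less Rbp2flf RIP-Cre minus RIP-Cre. It lay below 0 for 31 of 42 members, with a median of -0.34 against 0.20 over all genes. Psmc6 was called lower (-0.94, SE 0.21, adjusted p 0.0391) and Psmc3ip higher (0.79, SE 0.17, adjusted p 0.0391), where 1.61% and 1.78% of all genes were called in these directions. The alpha genes had a median of -0.64 and the beta genes of -0.49, over 7 genes each and with no gene called. The unadjusted p was under 0.05 for 24 members (57.1%), 20 of them below 0 (47.6%), and for 36.7% of all genes, with 11.2% of all genes below 0. The RIP-Cre arrays enter this quantity and every single-knockout difference with opposite signs, so a low reading of a gene in RIP-Cre islets raises those differences and lowers the interaction at once. Both calls were lost without RIP-Cre repeat 3, without any array of Men1flf RIP-Cre islets, without Rbp2flf RIP-Cre repeat 1 or 2 and without double knockout repeat 1, with values of -0.98 to -0.83 for Psmc6 and 0.68 to 0.80 for Psmc3ip, and that of Psmc6 also without double knockout repeat 3 (-0.89). The fits without those arrays called 22 to 85 of all genes, against 675 with all arrays. The member count was 10 without double knockout repeat 2 and 5 without its repeat 4 or RIP-Cre repeat 2. Of all genes, 1397, 1160 and 2783 were called in the latter fits. With the array median as a covariate, limma called no member and 20 of all genes, and 2 members had an unadjusted p under 0.05.

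The Cre transgene alone was compared as RIP-Cre against wt. Limma called 0 of 42 members and 0 of 19938 genes (0.00%), with 0 members and 552 genes at an unadjusted p under 0.05. Member differences ran from -0.23 (Psmb2) to 0.15 (Psme2), with a median of 0.00. With wt arrays in place of RIP-Cre as the control, 12 members were called in Rbp2flf RIP-Cre islets in place of 20. Of all genes, 1771 were called in place of 2672.

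The size of the differences followed the level of the gene in all genes. With all genes divided by mean level into 10 bands of equal size, the other genes in the top band set the scale. There the median difference was 0.21 in the double knockout, 0.20 in Men1flf RIP-Cre islets and 0.18 in Rbp2flf RIP-Cre islets, and 39.7%, 40.5% and 25.6% were called higher. The 10 members in that band had medians of 0.51, 0.55 and 0.58, and 7, 7 and 6 were called higher. In the next band down, where 26.5%, 31.2% and 14.2% of other genes were called higher, 6, 6 and 5 of 13 members were. In the band below, 5, 5 and 4 of 10 members were called higher, beside 21.9%, 25.8% and 10.8% of other genes. After cyclic loess normalization, which takes out level-dependent shifts between arrays, 19, 20 and 12 members were called higher, where 13.9%, 18.4% and 5.61% of all genes were. Called lower were 3, 8 and 1 members, where 2269, 3198 and 760 of all 19938 genes were. Member medians were then 0.32, 0.29 and 0.23, while the medians of all genes lay between -0.02 and -0.01.

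**Figure D3:**
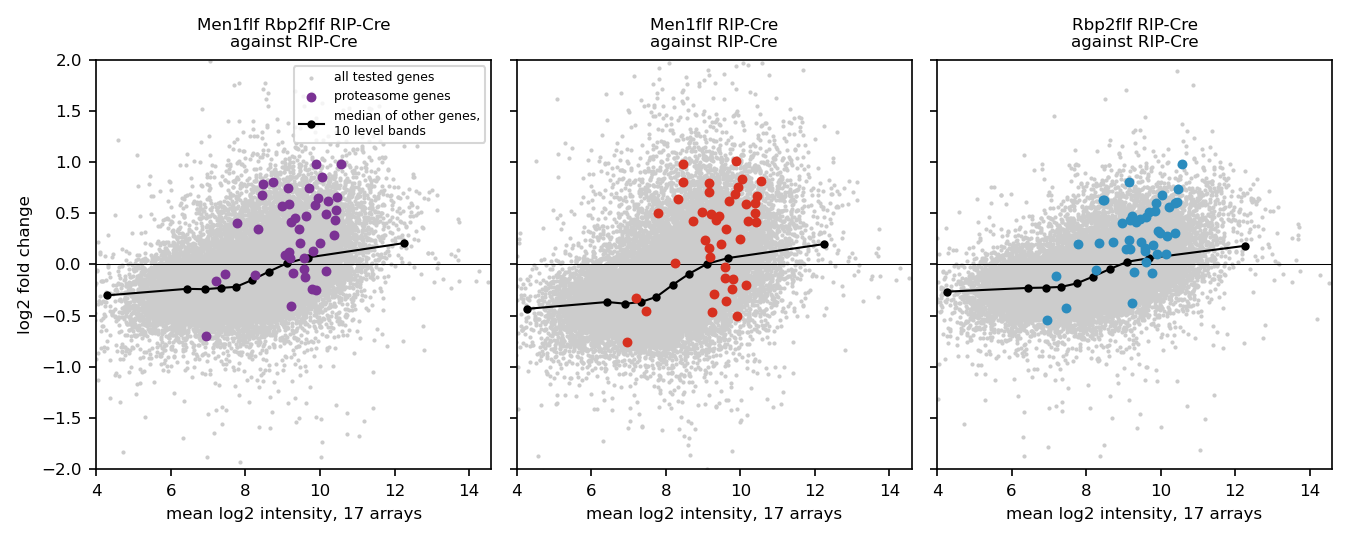
Log2 difference against RIP-Cre islets (y axis) by mean log2 intensity over the 17 arrays (x axis), 1 panel a knockout, for all tested genes (grey points) and the 42 members (coloured points), with a line through the medians of the other genes in 10 level bands. The line climbs with level, and most members lie above it in each panel.

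Array by array, the median of the 42 members was 9.50 to 9.63 in the double knockout, 9.50 to 9.53 in Men1flf RIP-Cre islets and 9.60 to 9.63 in Rbp2flf RIP-Cre islets. It was 9.23 to 9.39 in RIP-Cre islets and 9.26 to 9.52 in wt islets. Only wt repeat 2 reached the knockout range. The median of the 7 beta genes was 10.04 to 10.81, 10.12 to 10.44 and 10.35 to 10.59 in these knockouts, against 9.77 to 9.91 in RIP-Cre islets and 9.68 to 10.15 in wt islets. The non-ATPase cap genes followed the same pattern, with medians of 9.58 to 9.73, 9.63 to 9.65 and 9.65 to 9.81 in the knockouts, against 9.21 to 9.44 in RIP-Cre islets and 9.24 to 9.65 in wt islets. The medians of the ATPase genes were 9.50 to 9.59 in the double knockout, 9.34 to 9.42 in Men1flf RIP-Cre islets and 9.56 to 9.81 in Rbp2flf RIP-Cre islets, against 9.52 to 9.61 in RIP-Cre islets and 9.47 to 9.52 in wt islets. The Men1flf RIP-Cre arrays lay below those of all other groups, and the double knockout and Rbp2flf RIP-Cre arrays overlapped with RIP-Cre. RIP-Cre repeat 3 had the lowest member median, 9.23, and the highest median of all genes, 8.16. With the array median of all genes as a covariate, which takes out any difference that follows it, limma called 0 members in each knockout, with 10, 8 and 11 at an unadjusted p under 0.05 in the double knockout, Men1flf RIP-Cre and Rbp2flf RIP-Cre islets. Of all 19938 genes, the same fit called 280, 396 and 42 in that order. Member medians were then 0.15, 0.11 and 0.16. The array medians of the double knockout and Men1flf RIP-Cre islets lay below all control medians, so the parts of array median and genotype cannot be told apart there. Those of Rbp2flf RIP-Cre islets (7.82 to 7.98) overlapped in part with RIP-Cre islets (7.97 to 8.16), and the parts were not separated there either.

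**Figure D4:**
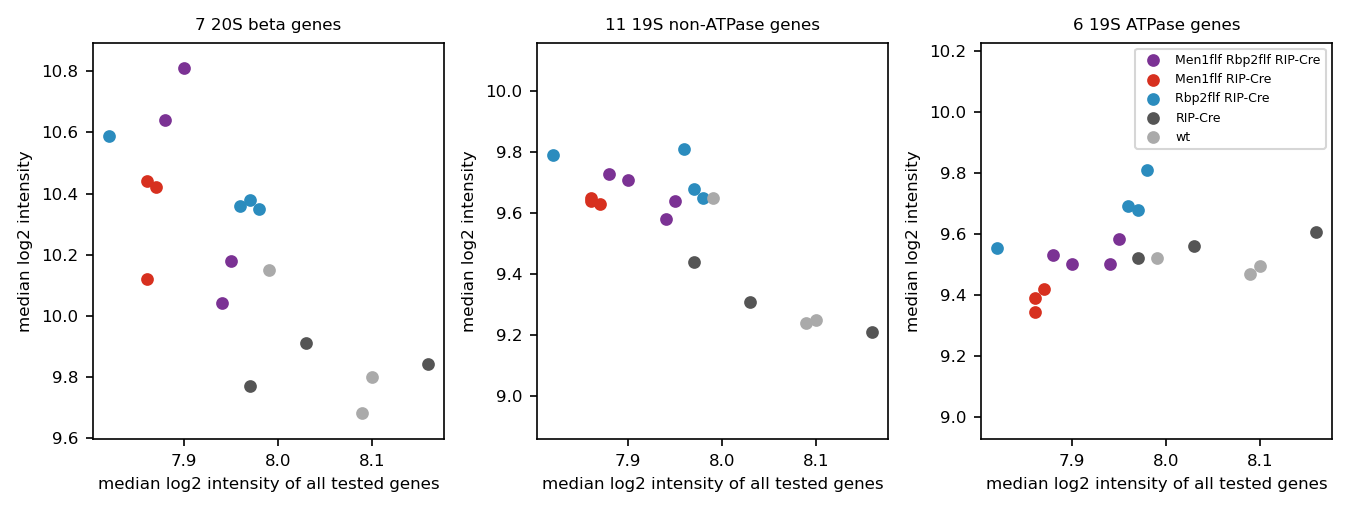
Median log2 intensity of the beta genes, the non-ATPase cap genes and the ATPase genes (1 panel each, y axis) on each of the 17 arrays against the median of all tested genes on that array (x axis), coloured by group. In the beta panel the knockout arrays, with all-gene medians of 7.82 to 7.98, lie above the RIP-Cre arrays, with 7.97 to 8.16, while in the ATPase panel the Men1flf RIP-Cre arrays lie below them and the other knockout arrays overlap with them.

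Exocrine and duct tissue varied between the preparations. The 6 acinar markers averaged 8.77 to 11.3 in the double knockout, 8.87 to 11.2 in Men1flf RIP-Cre islets and 8.61 to 9.90 in Rbp2flf RIP-Cre islets, against 8.07 to 11.1 in RIP-Cre islets and 9.22 to 10.4 in wt islets. These ranges overlapped between all groups. The 4 duct markers averaged 7.10 to 7.30 in the double knockout, 7.02 to 7.15 in Men1flf RIP-Cre islets and 7.05 to 7.61 in Rbp2flf RIP-Cre islets, against 7.41 to 7.81 in RIP-Cre islets and 7.71 to 8.06 in wt islets, so the Rbp2flf RIP-Cre arrays overlapped with RIP-Cre and those of the other knockouts lay below. Cftr was called lower in all 3, Krt19 and Muc1 in Men1flf RIP-Cre islets, and Sox9 in none. Their part in the proteasome results was not tested.

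The probe sets used for 4 members sit, in the order of probe set numbers, among genes of another chromosome than their own gene. They are those of Psma3, Psma5, Psmb3 and Psmd2, so which copy or gene these probes read is uncertain. The other probe sets of Psmd2, Psmb3 and Psma5 sit among genes of their own chromosome. In the double knockout and Men1flf RIP-Cre islets they gave 0.33 and 0.49 for Psmd2 and 0.59 and 0.32 for Psmb3. Unlike the probe set used, that of Psmd2 was not called in the double knockout (adjusted p 0.0759 in limma fitted to all probe sets). Nor was that of Psmb3 in Rbp2flf RIP-Cre islets (0.385, adjusted p 0.119 in the same fit). That of Psma5 was called higher in all 3 knockouts. The 3 probe sets of Psma3 gave 0.69 to 0.76 in Men1flf RIP-Cre islets. With the mean of all probe sets of a gene in place of the brightest, the counts of called members stayed within 1.5 times those given.

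Genes that work with the proteasome were counted from a list of 36, of which 28 were tested. In the double knockout 13 were higher and 2 lower, in Men1flf RIP-Cre islets 14 and 3, and in Rbp2flf RIP-Cre islets 12 and 0, beside the all-gene shares of 13.0% and 20.6%, 15.7% and 37.8%, and 6.70% in each direction. The 3 with the largest rises in the double knockout were Txnl1 (0.71), a cap-bound thioredoxin, Uba6 (0.69), a ubiquitin-activating enzyme, and Ubqln2 (0.63), a shuttle for ubiquitinated proteins. In Men1flf RIP-Cre islets they were Uba6 (1.00), Zfand5 (0.80), an activator of the proteasome, and Txnl1 (0.78). In Rbp2flf RIP-Cre islets they were Ubqln2 (0.72), the shuttle Rad23b (0.60) and Txnl1 (0.55). Sem1, a small cap subunit, was lower in the double knockout (-0.66) and in Men1flf RIP-Cre islets (-0.65). Nfe2l1, the transcription factor that raises proteasome genes when activity is short, was 0.30, 0.38 and 0.33 higher, while its relative Nfe2l2 was called in none. The core assembly genes Pomp, Psmg1, Psmg2, Psmg3 and Psmg4 were counted together with Akirin2. Of these 6, Psmg2 was higher in all 3 (0.46, 0.54 and 0.38), Pomp in the double knockout (0.45) and Psmg1 in Men1flf RIP-Cre islets (0.25).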

How the data were processed

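RNA from pancreatic islets was labelled and hybridized to Affymetrix whole-transcript arrays, per the labels' protocols. The deposited table holds 1 log2 intensity per probe set and array for 35512 probe sets. Software, background correction, normalization and genome build were not given in the sources used here. Base 2 follows from the steps of low values, since 82.3% of deposited values between 0 and 3 lie at log2 of multiples of 0.25, against 9.03% of possible values. Genes came from the platform annotation (21789 probe sets with a single gene, 1621 with several, 12102 unnamed), with symbols updated through RefSeq for 21698. The brightest probe set stood for each of 19938 genes. Groups came from the sample titles.

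Group means were fitted with limma 3.58.1 in R 4.3.3 (lmFit, eBayes) to all 17 arrays, with Benjamini-Hochberg adjustment over all genes of a comparison; the fit was tested on simulated data. Every member is named with its level, and the 5 highest and 5 lowest called members of each comparison with their change. Values on every array are given for the 3 highest and 3 lowest called members of each knockout and for the cutting subunits. The members and lists were chosen with earlier results of these data known. Same-numbered repeats did not deviate together (r from -0.30 to 0.45, median 0.01, 31 pairs), so repeat numbers were taken as names. Alternatives were other controls, filters, probe set rules, normalizations, the array median as a covariate, a repeat block and leaving out arrays. Probe positions and proteins were not used here.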

Additional observations from a re-analysis of the deposited data

Results flagged for a closer look

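In the groups of 4 arrays, a member's farthest array was compared with the rest of its group, over 84 member and group combinations. An array stood far from the others in 9 of them, where chance flags about 1 in 20 such groups. In the double knockout they were Psma4 on repeat 4 (10.85), Psma8 on repeat 1 (7.01) and Psmd9 on repeat 4 (8.24), each the highest of its group. In Rbp2flf RIP-Cre islets repeat 1 was the highest for Psma1 (10.4) and Psmb3 (10.59) and the lowest for Psmc3ip (7.05). Repeat 4 of that group was the lowest for Psmd2 (10.28), Psmd3 (9.75) and Psmd13 (9.16). Limma called an interaction for Psmc6 (-0.94) and Psmc3ip (0.79), both with an adjusted p of 0.0391. Of all genes, 1.61% and 1.78% were called in these directions. Both calls were lost when any of several single arrays was left out, and with the array median as a covariate.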

How the results depend on the processing

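For the called members with the highest and lowest values of each comparison (up to 5 each), 420 values across alternatives kept their direction and call, 114 kept the direction and lost the call, and none reversed. Outside these, Psmd8 turned to -0.07 in Men1flf RIP-Cre islets with the array median as a covariate (0.34 otherwise). Members called in Rbp2flf RIP-Cre islets (20) numbered 12 with wt as the control, 13 with the compared arrays alone, 13 after cyclic loess, 0 with the array median as a covariate (11 at an unadjusted p under 0.05 in limma) and 3 without wt repeats 1 and 3 and RIP-Cre repeat 3, the arrays with the highest medians. With the array median as a covariate the counts were 0 in Men1flf RIP-Cre islets (29 otherwise; 8 unadjusted), 0 in the double knockout (25; 10 unadjusted), 1 in each comparison of double with single knockout and 0 for the interaction (2 unadjusted). In the order listed, the Rbp2flf RIP-Cre fits called 1771, 1080, 1879, 42 and 475 of all genes, against 2672 in the full fit. The covariate fit called 396 of all genes in Men1flf RIP-Cre islets and 280 in the double knockout. It called 454 in double against Men1flf RIP-Cre, 510 in double against Rbp2flf RIP-Cre and 20 for the interaction. Without the 3 high-median controls the double knockout had 14, where 2892 of all genes were called. The interaction (2) gave 1 with wt as the control, 12 with pooled controls, 5 above the 25th percentile of level, 1 after quantile and 1 after cyclic loess normalization, 5 with an intensity trend and robust variances, and 0 without the 3 controls (19 unadjusted). In the order listed, those interaction fits called 508, 3256, 1400, 340, 504, 1198 and 48 of the genes tested, against 675. Leaving out 1 array gave 25 to 27 (Men1flf RIP-Cre), 0 to 22 (Rbp2flf RIP-Cre), 9 to 26 (double knockout), 0 to 10 (interaction) and 0 to 0 in the other comparisons. Over all genes the ranges were 6174 to 11006 (Men1flf RIP-Cre), 223 to 3382 (Rbp2flf RIP-Cre), 2371 to 7291 (double knockout) and 22 to 2783 (interaction). With the repeat number as a replicate block the interaction had 4, Men1flf RIP-Cre islets 30, Rbp2flf RIP-Cre islets 16 and the double knockout 23; the repeats share only a number. The cause of these shifts was not tested.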
